A study of Mus musculus with 6 samples.

Results

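Prostaglandin and leukotriene genes, 10 in number, were examined in bulk RNA-seq of CD11b+ tumor cells, with 3 samples from MCT2 CO and 3 from MCT2 KO mice. They were *Ptgs1*, *Ptgs2*, *Ptges*, *Ptgir*, *Ptger2*, *Ptger4*, *Alox5*, *Alox5ap*, *Lta4h* and *Ltc4s*, picked by symbol from the 25701 genes of the count table, and all 10 were found and passed the filter on low counts. All mice came from a conditional MCT2 line with a C57BL/6 background, which carries loxP sites in *Slc16a7* and an inducible Cre transgene described as systemic. When 8 weeks old, MCT2 KO mice were given tamoxifen and MCT2 CO mice vehicle, so the loss of MCT2 and the exposure to tamoxifen cannot be told apart here. TC1 cells, a mouse lung epithelial tumor line, were grown under the skin of the flank for 24 days, and CD11b+ cells were then taken from the digested tumors by positive selection. The paper reports larger tumors in MCT2 KO mice, so tumor size cannot be told apart from the treatment here either. Although the sample records give lung as the tissue and purified macrophages as the cells, the methods describe flank tumors and selection by CD11b, which neutrophils and other myeloid cells carry too. The question was which genes differ between the tumor macrophages of MCT2 KO and MCT2 CO mice.

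Prostaglandins and leukotrienes are lipid mediators made from arachidonic acid that phospholipases free from membranes. Cyclooxygenases turn arachidonic acid into prostaglandin H, from which further synthases make prostaglandin E, prostacyclin and thromboxane, each read by its own receptors on the cell surface. The enzyme 5-lipoxygenase, helped by its partner FLAP, makes leukotriene A, which is then turned into leukotriene B or leukotriene C. Macrophages are a known source of both kinds of mediator, and prostaglandin E is known for dampening immune responses in tumors.

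The 10 genes covered a wide range of levels. By edgeR's quasi-likelihood test 0 of them were called different between the groups, and 0 of all 13485 genes tested were called either. *Ptgs2*, the inducible cyclooxygenase gene, was among the most abundant messages in these samples and had nearly the same level in both groups. *Alox5*, which encodes 5-lipoxygenase, stood at 0.901 to 3.10 CPM (counts relative to the size of each library, scaled by the TMM method). *Alox5* and *Ptges*, the gene of the inducible prostaglandin E synthase, had the smallest p values of the 10 genes. Both were higher on average in MCT2 KO. *Alox5* and *Ptger2* were the 2 members whose MCT2 KO samples all lay above the MCT2 CO samples, as was the case for 7.07% of all genes tested. *Ptger4* and *Ltc4s* varied more within MCT2 KO than between the groups.

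Total counts ranged from 24863611 to 31713704 per sample, so that counting error is small for all members but *Alox5*, *Ptger2* and *Ltc4s*, which had between 26 and 101 counts per sample. The targeted gene, *Slc16a7*, had 287 to 481 counts in the MCT2 CO samples and 133 to 196 in the MCT2 KO samples. Its log2 fold change was -1.05 (standard error 0.24, edgeR quasi-likelihood, adjusted p = 0.370), and DESeq2 on the same genes gave an adjusted p of 0.00953. Of the 13 macrophage markers listed, 12 passed the filter on low counts, and their summed level was 5651 to 7646 CPM in MCT2 CO and 7008 to 10760 in MCT2 KO. *Itgam*, which encodes CD11b, had 1 count in all, and 99.1% of its exons lie inside the span of *Gm49368*, so this count does not check the selection. Fibroblast genes were abundant as well, at 2045 to 3355 CPM summed over 7 genes in MCT2 CO and 1708 to 1819 in MCT2 KO. The paper says that telling implanted TC1 cells from host stromal cells would need further analyses. Whether tumor cells were among the selected cells, and their part in these levels or those of the members, was not tested. MCT2 KO replicate 2 stood apart in lymphocyte genes, with 23.4 CPM for the summed B cell markers against at least 80.0 in the other 5 samples and 12.4 CPM for those of T and NK cells against at least 37.2. Without it edgeR called 0 members and 2 of the 13643 genes tested, and values without it stand beside the members they move most. In such bulk samples, fewer cells of a type and less RNA per cell cannot be told apart. The sources used here do not say that each sample is a separate mouse, so p values measure only the spread between these 6 samples, which may be technical.

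Both cyclooxygenase genes and the 5-lipoxygenase gene open their branch of the pathway, and the 250 bases before their RefSeq start sites on GRCm38.p6 are shown because their levels lay so far apart. The windows are chr2:36230176-36230425 on the plus strand for *Ptgs1*, chr1:150099781-150100030 on the plus strand for *Ptgs2* and chr6:116461179-116461428 on the minus strand for *Alox5*. Capitals mark matches to 6 motifs searched on both strands, namely the TATA box TATAAA, the C/EBP palindrome TTGCGCAA, the E-box CACGTG, the CRE half-site CGTCA, the GC box GGGCGG and the AP-1 site TGANTCA, over these bases and the 50 that follow the start.
Ptgs1: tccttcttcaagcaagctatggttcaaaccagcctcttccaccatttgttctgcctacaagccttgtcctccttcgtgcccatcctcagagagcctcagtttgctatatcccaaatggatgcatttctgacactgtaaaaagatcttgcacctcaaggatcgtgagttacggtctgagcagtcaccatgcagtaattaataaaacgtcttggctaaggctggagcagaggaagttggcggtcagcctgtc
Ptgs2: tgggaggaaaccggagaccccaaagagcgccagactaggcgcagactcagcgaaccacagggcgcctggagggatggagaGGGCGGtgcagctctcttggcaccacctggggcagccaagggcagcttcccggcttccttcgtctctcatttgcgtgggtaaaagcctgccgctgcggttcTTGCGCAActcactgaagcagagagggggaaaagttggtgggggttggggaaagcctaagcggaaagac
Alox5: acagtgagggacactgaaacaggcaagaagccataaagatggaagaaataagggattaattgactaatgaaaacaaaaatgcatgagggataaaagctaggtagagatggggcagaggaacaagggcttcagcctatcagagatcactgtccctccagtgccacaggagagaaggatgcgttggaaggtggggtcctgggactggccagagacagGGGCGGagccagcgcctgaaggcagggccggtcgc
The window of *Ptgs2* held the C/EBP palindrome from 69 to 62 bases before the start, a match found in 60 of 32851 RefSeq promoters of this length (0.183%). C/EBP factors are transcription factors of myeloid cells and of the acute inflammatory response. The same window held a GC box 170 bases before the start, and after the start a CRE half-site at base 14 that overlaps an E-box at base 17. The GC box occurred in 35.7% of all promoters, the CRE half-site in 20.8% and the E-box in 7.15%. *Alox5* had a GC box 35 bases before the start, and the window of *Ptgs1* matched none of the 6 motifs, which says only that these letters are not in it. The share of G and C was 61.6% in the window of *Ptgs2*, 52.8% in that of *Alox5* and 48.0% in that of *Ptgs1*.

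Cyclooxygenase 2 is encoded by *Ptgs2* (chromosome 1 of GRCm38, 150100031 to 150108227, plus strand), an early response gene that inflammatory signals switch on. It had 1880, 1776 and 1681 CPM in MCT2 CO replicates 1 to 3 and 1639, 1848 and 1777 CPM in MCT2 KO replicates 1 to 3. The samples of the groups were interleaved, and the highest sample was only 0.20 above the lowest on the log2 scale. Between the groups the log2 fold change was -0.02, with a standard error of 0.11 and a 95% interval from -0.26 to 0.22 (edgeR quasi-likelihood, adjusted p = 0.965). That interval leaves out a change of 0.58, the fold threshold used. Per kb of exon, *Ptgs2* ranked 61 from the top among 13467 genes tested that had an exon length. Beside this level, 13 of 15 genes of the dissociation response, a list of immediate early and heat shock genes, had negative log2 fold changes, 6 of them at an unadjusted p under 0.05. Of all genes tested, 5.6% were lower in MCT2 KO at that p, and 50.1% had log2 fold changes above 0. The dissociation response list summed to 15760 to 18800 CPM in MCT2 CO and 13180 to 16410 in MCT2 KO, and its part in the level of *Ptgs2* was not tested.

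Cyclooxygenase 1, the constitutive form, is encoded by *Ptgs1* (chromosome 2, 36230426 to 36252272, plus strand). It had 59.8, 59.5 and 91.3 CPM in MCT2 CO and 63.9, 77.2 and 60.5 CPM in MCT2 KO. The sample of MCT2 CO replicate 3 stood above the other 5. The fitted log2 fold change was -0.06 (95% interval -0.48 to 0.35, edgeR quasi-likelihood, adjusted p = 0.934), and without that replicate it was 0.17. The fibroblast markers were also highest in MCT2 CO replicate 3, at 3355 CPM. So were the summed mast cell and basophil markers, at 77.4 CPM, the dendritic cell markers, at 147 CPM, and the dissociation response genes, at 18800 CPM. In that sample *Gata2* alone gave 51.5 CPM of the mast cell and basophil sum, and *Fscn1* alone 101 CPM of the dendritic cell sum. The part of any of these lists in the level of *Ptgs1* was not tested. Within each sample *Ptgs2* exceeded *Ptgs1* by 18.4 to 31.4 times in CPM, and the log2 ratio was 4.69 ± 0.43 (SD, n = 3) in MCT2 CO and 4.71 ± 0.15 in MCT2 KO. Exon lengths would lower each of these log2 ratios by 0.24. In a 3.8% share of its exons *Ptgs1* lies inside the span of *Gm43621* on the opposite strand.

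The inducible synthase that turns prostaglandin H into prostaglandin E is encoded by *Ptges* (chromosome 2, 30889471 to 30929863, minus strand). It had 231, 255 and 314 CPM in MCT2 CO and 284, 363 and 362 CPM in MCT2 KO. MCT2 KO replicates 2 and 3 lay above all MCT2 CO samples, while MCT2 KO replicate 1 lay below MCT2 CO replicate 3. The mean was 267 ± 42.7 CPM (SD, n = 3) in MCT2 CO and 337 ± 45.2 in MCT2 KO. Its log2 fold change was 0.34, with a 95% interval from 0.0016 to 0.67 around it (standard error 0.14). Its unadjusted p was 0.0491 and its adjusted p 0.533 in edgeR's quasi-likelihood test. The log2 fold change was 0.47 without MCT2 CO replicate 3 and 0.24 without MCT2 CO replicate 1.

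**Figure D1:**
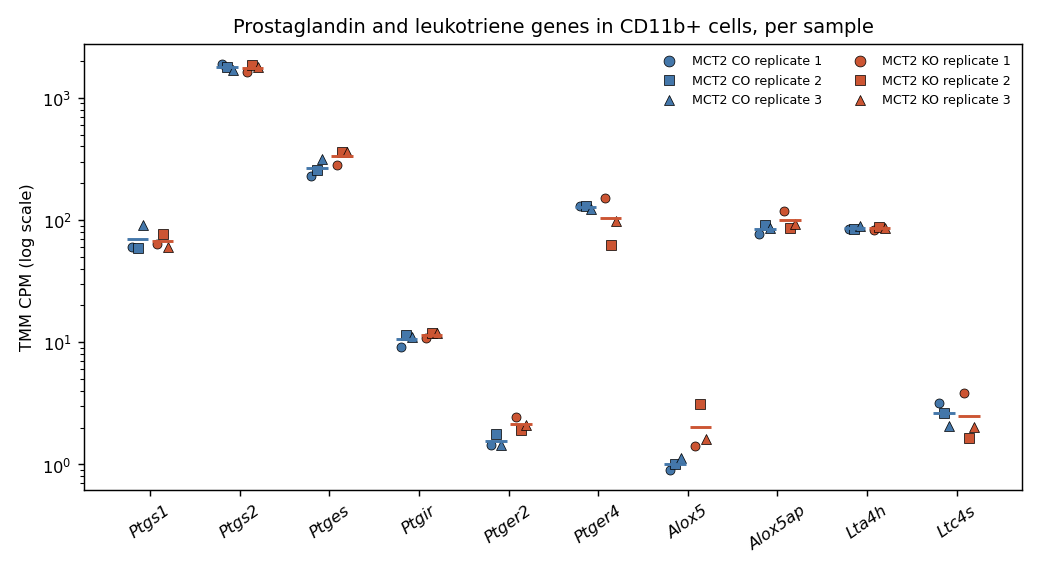
TMM CPM on a log axis for the 10 genes in each of the 6 samples, with MCT2 CO in blue, MCT2 KO in red, a marker shape per replicate and a line at each group mean. *Ptgs2* lies between 1639 and 1880 CPM in every sample, *Alox5* between 0.901 and 3.10, and *Ptger4* spreads from 61.9 to 150 within MCT2 KO.

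Among the prostanoid receptors, *Ptger2* and *Ptger4* encode EP2 and EP4, which read prostaglandin E and raise cyclic AMP, and *Ptgir* encodes the prostacyclin receptor. *Ptger4* (chromosome 15, 5206661 to 5244187, minus strand) had 131, 130 and 123 CPM in MCT2 CO and 150, 61.9 and 98.8 CPM in MCT2 KO. The MCT2 CO samples lay close together, and the MCT2 KO samples lay on both sides of them. Between the groups the log2 fold change was -0.30 (standard error 0.27, 95% interval -0.92 to 0.31, edgeR quasi-likelihood, adjusted p = 0.753). It was -0.04 without MCT2 KO replicate 2 and -0.67 without MCT2 KO replicate 1. Of the exons of *Ptger4*, 50.0% lie inside the span of *Ttc33* on the opposite strand, so its level may be understated, and what this does to the comparison was not tested.

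*Ptger2* (chromosome 14, 44988195 to 45003820, plus strand) had 1.43, 1.77 and 1.43 CPM in MCT2 CO and 2.43, 1.90 and 2.09 CPM in MCT2 KO. Every MCT2 KO sample exceeded every MCT2 CO sample, on 38 to 62 counts per sample (two-sided exact permutation test, p = 0.1, which is the least that 3 against 3 can give). The fitted log2 fold change was 0.47 (standard error 0.22, 95% interval -0.04 to 0.97, edgeR quasi-likelihood, adjusted p = 0.558). The log2 ratio of *Ptger4* to *Ptger2* was 6.51, 6.20 and 6.43 in MCT2 CO and 5.95, 5.03 and 5.56 in MCT2 KO. These ratios, which do not depend on the scaling between samples, did not overlap between the groups. The same held for *Ptger2* itself, on few counts, and the ratio was lowest in MCT2 KO replicate 2, where *Ptger4* was lowest. How often the ratios of other gene pairs fail to overlap was not counted. *Ptger4* was the more abundant receptor in every sample by 32.5 to 91.2 times in CPM.

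*Ptgir* (chromosome 7, 16906490 to 16910905, plus strand) had 9.14, 11.5 and 11.1 CPM in MCT2 CO and 10.9, 11.9 and 11.9 CPM in MCT2 KO. MCT2 CO replicate 1 was the lowest sample and the groups overlapped. The log2 fold change was 0.13 (95% interval -0.17 to 0.43, edgeR quasi-likelihood, adjusted p = 0.783).

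On the leukotriene side, *Alox5* (chromosome 6, 116410077 to 116461178, minus strand) had 27, 26 and 30 counts in MCT2 CO and 34, 101 and 40 counts in MCT2 KO. In CPM this was 0.901, 1.00 and 1.13 in MCT2 CO and 1.43, 3.10 and 1.61 in MCT2 KO. Here too no sample of MCT2 KO was as low as any of MCT2 CO (two-sided exact permutation test, p = 0.1), and MCT2 KO replicate 2 stood well above the other 2. Between the groups the log2 fold change was 1.03 (standard error 0.34, 95% interval 0.24 to 1.82), and edgeR's quasi-likelihood test gave it an unadjusted p of 0.0168 and an adjusted p of 0.444. Without MCT2 KO replicate 2 the log2 fold change was 0.59 and the unadjusted p from the same test 0.0724. Neutrophils also express *Alox5*. The 10 neutrophil markers summed to 83.3 to 103 CPM in MCT2 CO and to 186, 69.6 and 138 CPM in MCT2 KO replicates 1 to 3. Of these markers 8 passed the filter, and 6 were higher in MCT2 KO at an unadjusted p under 0.05 by edgeR, against 3.77% of all genes tested. Most of the neutrophil sum was *Csf3r*, at 41.1 CPM in MCT2 KO replicate 2 and 70.9 to 120 CPM in the other samples. Without *Csf3r*, a choice made after its values were seen, the other 9 markers summed to 9.94, 9.08 and 12.4 CPM in MCT2 CO and 66.0, 28.5 and 20.0 CPM in MCT2 KO, so that every MCT2 KO sample lay above every MCT2 CO sample. Among all single genes tested, 7.07% had every MCT2 KO sample above every MCT2 CO sample. The part of neutrophils in the level of *Alox5* was not tested. Of 5 eosinophil markers, 2 passed the filter. *Siglecf* was at 0.263 to 0.367 CPM in MCT2 CO and 0.587 to 0.706 in MCT2 KO, on 79 counts in all. The groups overlapped in *Ccr3*, also on 79 counts. *Prg2*, *Epx* and *Il5ra* failed the filter, with 26, 8 and 4 counts. *Prg2* was at 0.10 to 0.23 CPM in MCT2 CO and 0.09 to 0.25 in MCT2 KO. The part of eosinophils in the level of *Alox5* was not tested.

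*Alox5ap* (chromosome 5, 149264767 to 149288153, plus strand) encodes FLAP, the membrane protein that presents arachidonic acid to 5-lipoxygenase. It had 77.1, 90.2 and 86.3 CPM in MCT2 CO and 119, 86.3 and 93.1 CPM in MCT2 KO. The groups overlapped, with MCT2 KO replicate 1 above the rest. Without MCT2 KO replicate 2 the log2 fold change was 0.33, with an unadjusted p of 0.0306 and an adjusted p of 0.407 by edgeR. The fitted log2 fold change was 0.23 (standard error 0.13, 95% interval -0.07 to 0.53, edgeR quasi-likelihood, adjusted p = 0.605).

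The last steps of the branch are served by *Lta4h*, whose enzyme makes leukotriene B, and by *Ltc4s*, whose enzyme joins glutathione to leukotriene A. *Lta4h* (chromosome 10, 93453411 to 93484875, plus strand) had 84.1, 85.1 and 89.5 CPM in MCT2 CO and 83.1, 87.0 and 86.6 CPM in MCT2 KO. It was the steadiest of the 10 genes, with 0.11 between its highest and lowest sample on the log2 scale. Its log2 fold change was -0.01 (95% interval -0.18 to 0.15, edgeR quasi-likelihood, adjusted p = 0.970).

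*Ltc4s* (chromosome 11, 50236461 to 50238616, minus strand) had 3.17, 2.65 and 2.07 CPM in MCT2 CO and 3.86, 1.66 and 2.01 CPM in MCT2 KO. MCT2 KO replicates 1 and 2 were the highest and the lowest of all 6 samples, and without replicate 2 the log2 fold change was 0.15. The log2 fold change was -0.08, with a wide 95% interval from -0.87 to 0.71 (edgeR quasi-likelihood, adjusted p = 0.956). The log2 ratio of *Ltc4s* to *Lta4h* was -5.06 ± 0.36 (SD, n = 3) in MCT2 CO and -5.19 ± 0.68 in MCT2 KO, and exon lengths would raise each ratio by 2.59.

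**Figure D2:**
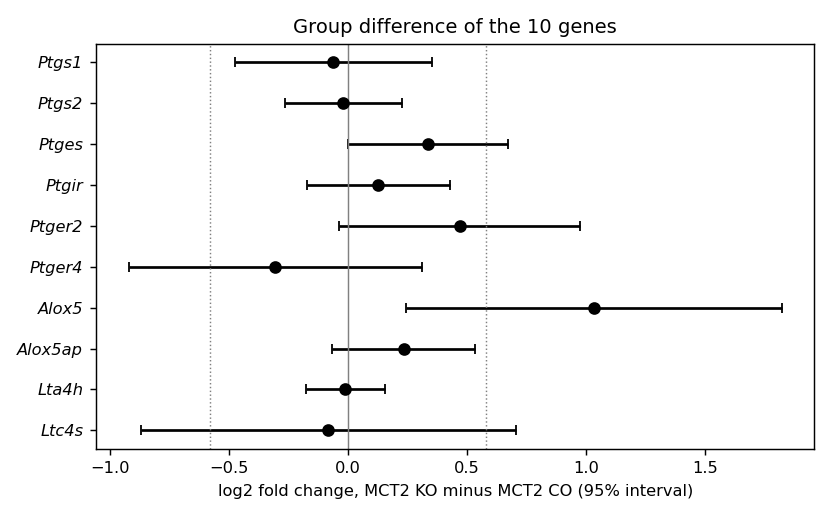
Log2 fold change of MCT2 KO against MCT2 CO for the 10 genes with 95% intervals from edgeR's quasi-likelihood fit, where dotted lines mark a change of 0.58 either way. The intervals of *Lta4h* and *Ptgs2* are the narrowest, and those of *Alox5*, *Ltc4s* and *Ptger4* the widest.

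Over all 13485 genes tested, edgeR's quasi-likelihood test called 0 (0% of the genes) with the thresholds of the study, which are 0.05 for the adjusted p and 0.58 for the size of the log2 fold change, and limma-voom called 0, whereas DESeq2 called 79 on the same genes. Of the 10 members 0 were called by any of the 3 tools. At an unadjusted p under 0.05 there were 2 members, *Alox5* and *Ptges*, both higher in MCT2 KO, against a background of 3.77% of all genes higher and 5.6% lower. The groups did not overlap in 2 of the 10 members and in 15.8% of all genes tested, and both of these members lay wholly above MCT2 CO, as did 7.07% of all genes. With 10 members these shares rest on 2 genes. The median log2 fold change was 0.06 over the members, with 5 of 10 above 0, and 0.0004 over all genes, of which 50.1% were above 0.

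Levels of different genes were compared as CPM per kb of the exons in GENCODE M21. *Ptgs2* came first at 388 ± 21.7 CPM per kb (SD, n = 3) in MCT2 CO and 383 ± 23.2 in MCT2 KO. *Ptges* and *Alox5ap* followed at 76.7 and 64.7 CPM per kb over all 6 samples, and their samples overlapped. The next 3 were *Ptgs1* at 17.7, *Ptger4* at 17.4 and *Lta4h* at 14.1, where *Ptger4* overlapped with both of the others. No sample of *Alox5ap* was as low as any of *Ptgs1*, and no sample of *Lta4h* as low as any of *Ptgir*. Over the exons of *Ptger4* that lie outside *Ttc33* its level would be 34.9 CPM per kb. *Ptgir* at 3.32 and *Ltc4s* at 2.53 overlapped, and so did the lowest pair, *Alox5* at 0.372 and *Ptger2* at 0.355. Among all genes with an exon length, *Alox5ap* stood at percentile 95.3 on this scale and *Alox5*, whose enzyme it serves, at percentile 9.23.

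**Figure D3:**
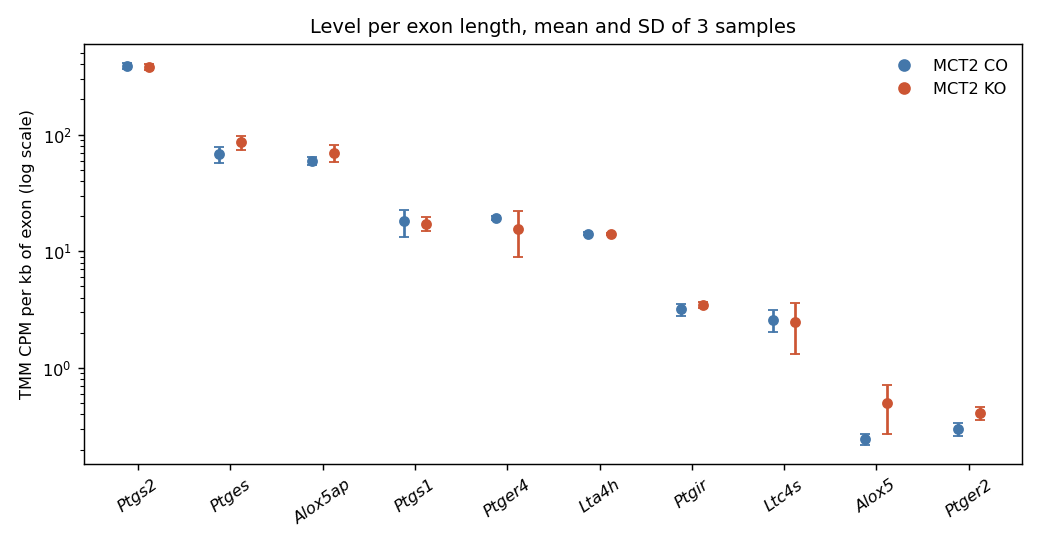
Mean and SD over 3 samples of CPM per kb of exon, on a log axis, for each gene in MCT2 CO (blue) and MCT2 KO (red), in falling order of the mean over all samples. *Ptgs2* lies at 386 over all samples, and *Alox5* and *Ptger2* have group means under 0.5.

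Several members shared their highest or lowest sample with other genes. *Ptger4*, *Ltc4s* and *Hpgds*, which encodes the hematopoietic prostaglandin D synthase, were all highest in MCT2 KO replicate 1 and lowest in MCT2 KO replicate 2. *Hpgds* had 150, 113 and 115 CPM in MCT2 CO and 186, 77.8 and 115 CPM in MCT2 KO. The summed macrophage markers were also highest in MCT2 KO replicate 1, at 10760 CPM, and lowest in MCT2 CO replicate 3, at 5651. The summed neutrophil markers were highest and lowest in the same samples as these 3 genes, at 186 and 69.6 CPM, but most of that sum was *Csf3r*. Without *Csf3r* the other 9 markers were again highest in MCT2 KO replicate 1, at 66.0 CPM. They were lowest in MCT2 CO replicate 2, at 9.08 CPM, with 28.5 CPM in MCT2 KO replicate 2. MCT2 KO replicate 2 was the lowest sample for the B cell and the T and NK cell markers. *Ptgis*, the prostacyclin synthase gene of stromal cells, had 51.6, 58.3 and 75.4 CPM in MCT2 CO and 45.5, 69.5 and 61.9 CPM in MCT2 KO, and it shared with *Ptgs1* its highest sample, MCT2 CO replicate 3. *Ptges* had 284, 363 and 362 CPM in MCT2 KO replicates 1 to 3. There the fibroblast markers summed to 1819, 1815 and 1708 CPM, below every MCT2 CO sample. Within MCT2 CO, *Ptges* had 231, 255 and 314 CPM in replicates 1 to 3, where the fibroblast markers summed to 2045, 2239 and 3355 CPM. The part of cell composition in these levels was not tested.

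**Figure D4:**
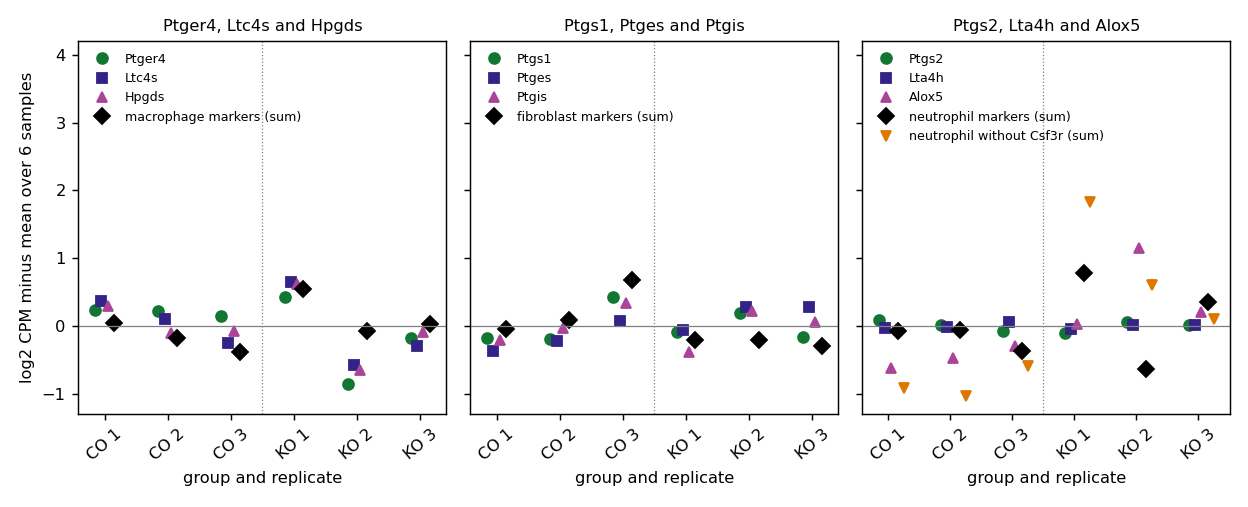
Log2 CPM minus the mean over the 6 samples for 3 sets of genes, each beside the summed level of a marker list (black diamonds; orange triangles leave out *Csf3r*), by group and replicate. *Ptger4*, *Ltc4s* and *Hpgds* part MCT2 KO replicates 1 and 2 by more than 1 on the log2 scale, *Ptgs2* and *Lta4h* hardly move, and *Alox5* is highest in MCT2 KO replicate 2.

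Genes with the most similar pattern were sought for *Ptgs1*, *Ptgs2* and *Alox5* by the root mean square difference of mean-centred log2 CPM over the 6 samples, among the 10614 genes with a mean of at least 5 CPM. For *Alox5* they were *Nrcam* (difference 0.13), *Hilpda* (0.18) and *Apln* (0.20). *Hilpda* encodes a lipid droplet protein induced by hypoxia, and *Apln* the peptide apelin. *Nrcam* had 21.3, 26.5 and 28.9 CPM in MCT2 CO and 31.6, 78.5 and 47.5 CPM in MCT2 KO, with the peak of *Alox5* in MCT2 KO replicate 2. For *Ptgs1* they were *Scrn3* (0.05), *Tlcd4* (0.05) and *Poln* (0.06), and for *Ptgs2*, whose pattern is nearly flat, *Akirin2*, *Tbp* and *Pkn2* (0.02 each). With 6 samples and so many genes, close matches are a description of these samples.

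The other genes of the eicosanoid pathway, 46 in number, were followed by role, and 33 passed the filter on low counts. The lowest adjusted p by edgeR was 0.396, so 0 were called, and limma-voom and DESeq2 called 0 as well. Before adjustment, 4 were higher and 1 lower in MCT2 KO with p under 0.05, together 15.2% of the 33 against 9.37% of all genes tested. The groups did not overlap in 10 of the 33 (30.3%, against 15.8% of all genes), 5 of them higher and 5 lower in MCT2 KO. Over all genes 7.07% lay wholly above and 8.77% wholly below MCT2 CO. The median log2 fold change was 0.0016, with 17 genes above and 16 below 0.

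In the release and recycling of arachidonic acid, *Pla2g4a*, the gene of cytosolic phospholipase A2, had 93.9 to 112 CPM in MCT2 CO and 110 to 115 CPM in MCT2 KO, with a log2 fold change of 0.14 (standard error 0.09). Its relative *Pla2g4c* had 4.37, 3.81 and 4.14 CPM in MCT2 CO and 3.02, 2.98 and 2.69 CPM in MCT2 KO. Between the groups the log2 fold change of *Pla2g4c* was -0.50 (standard error 0.17, edgeR quasi-likelihood, unadjusted p = 0.017, adjusted p = 0.444), and the groups did not overlap. *Lpcat3*, which puts arachidonic acid back into membrane phospholipids, had 30.4, 30.5 and 27.0 CPM in MCT2 CO and 38.0, 35.8 and 36.7 CPM in MCT2 KO. Its log2 fold change of 0.33 (standard error 0.09) had the smallest p of the list (edgeR quasi-likelihood, unadjusted p = 0.00515, adjusted p = 0.396), and 10.2% of its exons lie inside the span of *Emg1*.

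Of the synthases beyond cyclooxygenase, *Tbxas1*, which encodes thromboxane synthase, had 16.7, 19.3 and 23.7 CPM in MCT2 CO and 23.0, 30.8 and 28.8 CPM in MCT2 KO. MCT2 KO replicate 1 lay just under MCT2 CO replicate 3, and the log2 fold change was 0.47 (standard error 0.16, edgeR quasi-likelihood, adjusted p = 0.453). Platelets carry this enzyme too, and the platelet markers summed to 28.0 to 39.3 CPM in MCT2 CO and to 56.0, 84.2 and 29.4 CPM in MCT2 KO replicates 1 to 3, with *Pf4* making up most of the sum. Their part in the level of *Tbxas1* was not tested. *Ptges2*, a further prostaglandin E synthase gene, had 13.1 to 14.1 CPM in MCT2 CO and 11.7 to 12.7 CPM in MCT2 KO, without overlap and opposite in direction to *Ptges* (log2 fold change -0.18, standard error 0.10, edgeR quasi-likelihood, adjusted p = 0.630). *Ptgr2*, which breaks prostaglandins down, had at most 20.6 CPM in MCT2 CO and at least 20.97 CPM in MCT2 KO (log2 fold change 0.28, standard error 0.13).

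Of the 6 further prostanoid receptor genes, 3 passed the filter. *Tbxa2r*, the thromboxane receptor gene, had 0.452 to 0.734 CPM in MCT2 CO and 0.0921 to 0.419 CPM in MCT2 KO, a log2 fold change of -1.04 with a standard error of 0.52 on 73 counts in all. *Ptgfr*, which encodes the receptor of prostaglandin F, had 28.8 to 34.7 CPM in MCT2 CO and 23.8 to 40.7 CPM in MCT2 KO.

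Among the leukotriene genes, *Mgst2*, whose enzyme can also make leukotriene C, had 3.17, 2.42 and 2.52 CPM in MCT2 CO and 3.52, 4.48 and 4.54 CPM in MCT2 KO. Its log2 fold change was 0.63 (standard error 0.20, edgeR quasi-likelihood, unadjusted p = 0.0136, adjusted p = 0.436), and the groups did not overlap. Of the receptors, *Ltb4r1*, the high-affinity receptor of leukotriene B, had 4.80 to 5.31 CPM in MCT2 CO and 5.46 to 5.96 CPM in MCT2 KO, while *Ltb4r2*, the low-affinity one, had 1.501 to 1.69 and 1.23 to 1.45 CPM. Neither pair of groups overlapped, and their log2 fold changes were 0.17 (standard error 0.14) and -0.26 (standard error 0.21). *Cysltr1*, a receptor of cysteinyl leukotrienes, had 22.2 to 29.7 CPM in MCT2 CO and 27.6 to 35.1 CPM in MCT2 KO. *Alox15*, the 12/15-lipoxygenase gene, had 0.1001, 0.231 and 0.339 CPM in MCT2 CO and 0.755, 0.614 and 0.402 CPM in MCT2 KO, a log2 fold change of 1.41 with a standard error of 0.48 (edgeR quasi-likelihood, adjusted p = 0.457) on 66 counts in all. *Aloxe3*, an epidermal lipoxygenase gene, had 1.73 to 1.90 CPM in MCT2 CO and 1.38 to 1.69 CPM in MCT2 KO.

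**Figure D5:**
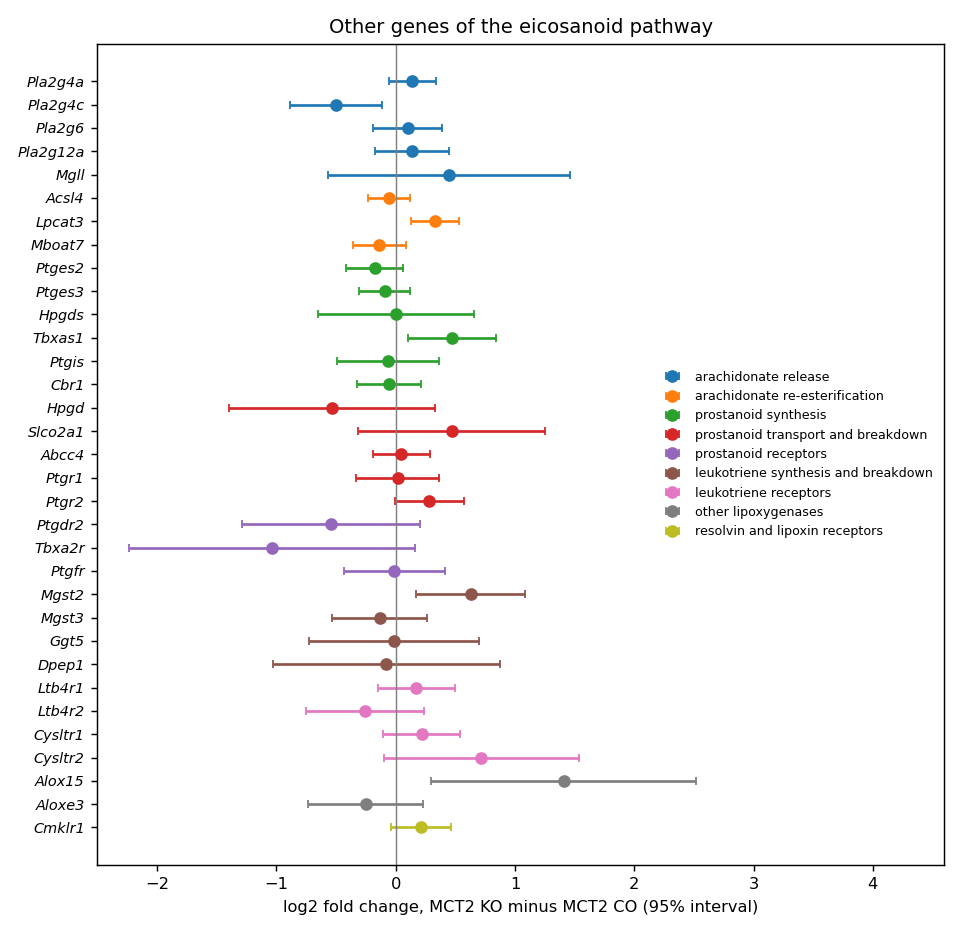
Log2 fold change of MCT2 KO against MCT2 CO with 95% intervals for the 33 further eicosanoid genes that passed the filter, coloured by role. The intervals of *Lpcat3*, *Tbxas1*, *Mgst2* and *Alox15* lie above 0 and that of *Pla2g4c* below 0, before any adjustment for the number of genes.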

How the data were processed

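Poly-A RNA of CD11b+ cells was sequenced in 3 MCT2 CO and 3 MCT2 KO samples, grouped by the sample titles. Per the submitters' processing notes, alignment was to GRCm38 with STAR 2.7.11b, and the values the authors deposited are counts of reads for each gene from featureCounts 2.1.1, with no normalization. The annotation, feature type and strand setting of the counting are not given in the sources used here. The table's gene lengths are whole gene spans, and 98.1% of the 25594 identifiers shared with GENCODE M21 have its span length but 2.22% its start, so positions and exons were taken from GENCODE M21 on GRCm38. Where exons lie inside another gene's span, reads may have been left uncounted. Among the 10 genes this touches *Ptger4* and, slightly, *Ptgs1*.

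Counts were analysed with edgeR 4.0.16, limma 3.58.1 and DESeq2 1.42.0 in R 4.3.3, and with Python 3.11.15. The 13485 genes that passed filterByExpr (at least 10 counts in enough samples, at least 15 in total) were normalized by TMM and compared by the quasi-likelihood test without covariates, with Benjamini–Hochberg adjustment over all of them. A gene was called with the study's thresholds, 0.05 for the adjusted p and 0.58 for the size of the log2 fold change. Standard errors and 95% intervals come from the same fit. Library preparation marks strand. The code was tested on simulated data. Promoter sequences are those of RefSeq on GRCm38.p6. *Dpep2* has a pair of overlapping entries in the table, of which the first was read.

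The text names the 10 members, *Slc16a7*, the further pathway genes at an unadjusted p under 0.05 or without group overlap, and the 3 nearest patterns of *Ptgs1*, *Ptgs2* and *Alox5*. *Pla2g4a*, *Hpgds*, *Ptgis*, *Ptgfr*, *Cysltr1*, marker genes and pathway genes that failed the filter, were named after their values were seen. The members, lists and tests were chosen with earlier results of these data known. Alternatives were DESeq2, limma-voom, other size factors, other filters, a replicate block and each sample left out. Chi-square values per degree of freedom between replicates were 15.7 or more, so no pair of samples agreed within sampling noise.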

Additional observations from a re-analysis of the deposited data

How the results depend on the processing

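The 10 members gave 0 calls, and the 33 further pathway genes 0 calls, under DESeq2, limma-voom, other size factors, other filters, the replicate block and each sample left out in turn. Over all genes the count of 0 became 79 with DESeq2 on the same genes (34 higher, 45 lower), 83 with DESeq2 on every gene with at least 1 count (33 higher, 50 lower) and 2 without a filter beyond 1 count in total. It ranged from 0 to 2 with a sample left out, with 2 without MCT2 KO replicate 2. By DESeq2, *Slc16a7* passed both thresholds, with log2 fold changes of -1.05 on the same genes and -1.04 on every gene with at least 1 count. The 2 members whose groups do not overlap stayed 2 with other scalings. The members at an unadjusted p under 0.05 went from 2 to 0 without MCT2 CO replicate 1 and to 3 without MCT2 KO replicate 1, of which *Ptger4* was 1. The count was 1 with upper-quartile factors, with the stricter filter and without MCT2 CO replicate 2 or MCT2 KO replicate 3, each time *Alox5*, and 1 without MCT2 KO replicate 2, which was *Alox5ap* (edgeR, unadjusted p = 0.0306).

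The sign turned for members whose log2 fold change is near 0: with a sample left out, *Ptgs1* ranged from -0.17 to 0.17, *Ptgs2* from -0.0594 to 0.0363, *Lta4h* from -0.0281 to 0.0186 and *Ltc4s* from -0.52 to 0.15. *Ptgs1* was 0.17 without MCT2 CO replicate 3 and 0.02 without MCT2 KO replicate 3, *Ptgs2* 0.02 without MCT2 CO replicate 1 and 0.0363 without MCT2 KO replicate 1, and *Lta4h* 0.02 without MCT2 CO replicate 3 or MCT2 KO replicate 1 and 0.0008 with DESeq2 on every gene with at least 1 count. *Ltc4s* was 0.08 without MCT2 CO replicate 1, 0.15 without MCT2 KO replicate 2 and 0.06 without MCT2 KO replicate 3. The cause was not tested. The replicate numbers share no stated litter or day, and same-numbered samples correlated at 0.25, -0.34 and -0.25 in their deviations from the group means, and not every sample correlated best with its own number, so they were not taken as pairs. With the replicate block 0 genes were called, 0 members and 0 pathway genes, and the genes at an unadjusted p under 0.05 went from 1264 to 1048. Depth limits *Alox5*, *Ptger2*, *Ltc4s* and *Alox15*, whose counts are few.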

Other observations

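The 13 remaining eicosanoid genes did not pass the filter on low counts. *Ptger1* had 0 counts, *Fpr2* 2 and *Dpep2* 4 over the 6 samples, and all exons of *Ptger1* and *Dpep2* and 97.8% of those of *Fpr2* lie inside the spans of other genes, so these counts say little about their expression. *Ptgds*, the lipocalin-type prostaglandin D synthase gene, had 1 count in all and no exon inside another span, while *Hpgds*, the hematopoietic form, had 20334. *Ptger3* and *Ptgdr*, receptors of prostaglandins E and D, had 11 counts each, as did *Ggt1*, a gamma-glutamyltransferase gene. The secreted phospholipase genes *Pla2g5*, *Pla2g10* and *Pla2g2d* had 2, 9 and 35 counts, and the lipoxygenase genes *Alox8*, *Alox12b* and *Alox12* 6, 16 and 37.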
